A study of Mus musculus with 16 samples.

Results

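Respiratory complex I was examined through the 37 nuclear genes of the deposited expression table whose symbols begin with Ndufa, Ndufb, Ndufc, Ndufs or Ndufv and a number. These were 37 of the 23970 symbols in the table, and all 37 were among the 11256 genes tested. RNA had been sequenced from the quadriceps of 16 wild-type C57BL/6NTac mice, all male and aged 16 weeks, with 4 mice in each of 4 groups. CON-pre mice had eaten a control diet (10% of kcal from fat) and HFD-pre mice a high-fat diet (60% of kcal from fat) for 10 weeks, and both were sampled under basal conditions. CON-post and HFD-post mice had eaten the same diets and were sampled 3 h after a single run to exhaustion on an inclined treadmill. The pre and post mice were different animals, and all of them shared the strain, sex and tissue, so the comparisons are between mice of 1 strain and 1 sex and between whole pieces of muscle.

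Complex I (NADH:ubiquinone oxidoreductase) is where electrons from NADH enter the respiratory chain, and it couples their passage to ubiquinone with the pumping of protons across the inner mitochondrial membrane. It is shaped like an L. The peripheral arm reaches into the matrix and holds the flavin and the iron-sulfur clusters, and the membrane arm pumps the protons. The core subunits of the peripheral arm and every accessory subunit are encoded in the nucleus, while the core subunits of the membrane arm are encoded by the mitochondrial genome. Muscle fibres are rich in the complex, and the oxidation of fat and carbohydrate supplies its NADH. By their place in the complex, 7 members were core subunits, 9 were accessory subunits of the peripheral arm, 9 were accessory subunits of the proximal membrane arm and 10, the Ndufb genes, were accessory subunits of the distal membrane arm. The other 2 members matched the naming pattern only: Ndufa4, now assigned to cytochrome c oxidase, and its paralogue Ndufa4l2, known for its induction by low oxygen. The mitochondrially encoded subunits had 0 of 7 symbols in the table and are not analysed here. In RefSeq GRCm38.p6 the 37 genes lay on 15 chromosomes, with at most 5 on any chromosome.

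Complex I transcripts were abundant in quadriceps in every group. Levels are in FPKM (sequenced fragments per kilobase of a transcript, set by the authors against the mapped fragments of each library), which divides by length. Levels are set side by side between genes on this scale only, and its other biases between genes were not tested. The median member had a mean of 128 FPKM over the 16 libraries, against 4.51 FPKM for the median of all genes tested, and 34 of the 37 members were at or above the 90th percentile of those genes. Between 50 and 400 FPKM lay 32 of the 37 means. The core subunits had a median of 129 FPKM, and the lowest of them was Ndufs3 (53.9 FPKM). The peripheral accessory subunits had a median of 118 FPKM, the proximal membrane accessory subunits 123 FPKM and the distal membrane accessory subunits 146 FPKM. The highest levels of all were those of Ndufa4 (694 FPKM), Ndufa3 (422 FPKM), Ndufb8 (353 FPKM) and Ndufb9 (352 FPKM). At the lower end stood Ndufs5 (0.605 FPKM), Ndufa4l2 (4.65 FPKM), Ndufa11 (21.4 FPKM), Ndufb4 (53.2 FPKM) and Ndufs3. Together the members took between 1.80 and 2.23% of the summed FPKM of a library. At rest this share was 1.86% ± 0.08 on the control diet and 2.01% ± 0.07 on the high-fat diet, and after exercise 1.94% ± 0.07 and 2.05% ± 0.12 (SD, n = 4 each), and the ranges of the groups overlapped. The summed FPKM behind it was 5930 ± 398 and 6050 ± 224 at rest and 6071 ± 414 and 6185 ± 157 after exercise, in the same order (SD, n = 4 each), again with overlapping ranges. The total FPKM of a library, by which the share is divided, differed as well. It was 305490 to 327559 in CON-pre and 294867 to 303652 in HFD-pre, and 298638 to 329282 in CON-post and 283575 to 314764 in HFD-post.

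**Figure D1:**
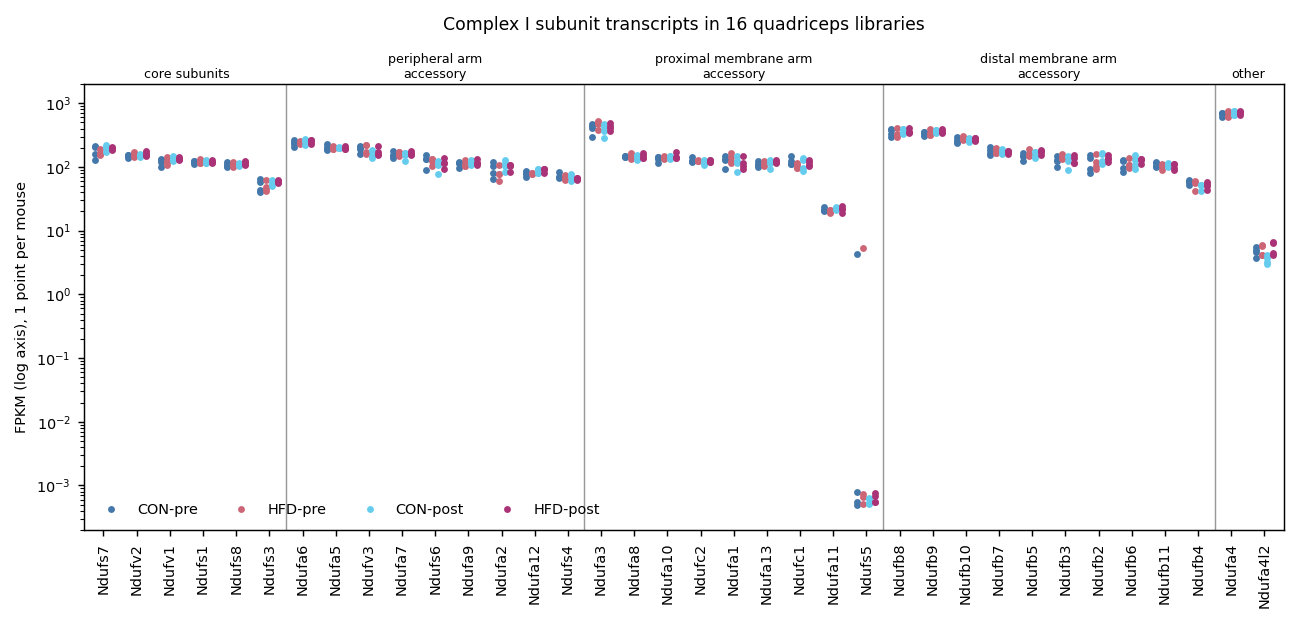
FPKM of 36 of the 37 complex I genes on a log axis, with 1 point for each of the 16 mice, coloured by group and arranged by place in the complex and then by mean level. Apart from Ndufs5, Ndufa4l2 and Ndufa11, the members sit between 39.8 and 765.9 FPKM, and the colours overlap within each member.

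Ndufs5, a proximal membrane arm subunit, stood apart from the rest of the complex. It was read at 4.33 FPKM in CON-pre 3 and at 5.34 FPKM in HFD-pre 1, and under 0.001 FPKM in the other 14 libraries. Values so near 0 can be failed estimates, which was not tested, and Ndufs5 passed the filter on low values only through these 2 libraries. Its fitted log2 fold changes (-0.82 in CON-post and -0.89 in HFD-post against the pre group of the same diet) rest on 1 library of each pre group, and no fold is drawn from them. It stays in the counts and medians over 37 members given below. Without it, 23 of 36 members were higher with the diet at rest, 23 of 36 after exercise and 24 of 36 with both states together, the counts with exercise were 21 of 36 in the CON mice, 25 of 36 in the HFD mice and 19 of 36 with both diets together, and no median moved by more than 0.013. The remaining 36 members varied little between mice. The highest of the 16 libraries exceeded the lowest by 1.42-fold in the median member, by 1.17-fold in Ndufs1 (which carries iron-sulfur clusters) and by 2.20-fold in Ndufa4l2, and 22 of the 36 varied by less than 1.5-fold. Their within-group standard deviation had a median of 0.13 on the log2(FPKM + 0.5) scale, against 0.18 for all genes tested and 0.13 for the 696 tested genes whose mean reached 50 FPKM.

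Stretches of promoter are shown for the members in which a binding motif of a factor classically linked to respiratory chain genes was found, because Ppargc1a, the coactivator of these factors, rose in these muscles after exercise, as given further on. RefSeq windows of GRCm38.p6 were matched by symbol for 32 of the 37 members and 5 had no window. The 250 bases before the start site were searched on both strands for the NRF-1 core CGCATGCGC, the ETS motif CCGGAAG bound by GABP, and the oestrogen-related receptor motif TCAAGGTCA. Capitals mark the motif, and all stretches are printed 5′ to 3′ on the strand of the gene. The NRF-1 core was found in Ndufa8 (chr2:36049339-36049377, minus strand, starting 9 bases before the start site) and Ndufa11 (chr17:56717673-56717741, plus strand, 59 bases before it, with a match of the other orientation that overlaps it).
Ndufa8: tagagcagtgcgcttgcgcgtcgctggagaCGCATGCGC
Ndufa11: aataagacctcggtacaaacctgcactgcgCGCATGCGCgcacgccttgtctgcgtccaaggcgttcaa
The ETS motif was found in Ndufs3 (chr2:90904722-90904778, minus strand, 27 bases before the start site), Ndufb7 (chr8:83566708-83566757, plus strand, 20 bases before it) and, as its reverse complement, Ndufb6 (chr4:40279617-40279671, minus strand, 232 bases before it).
Ndufs3: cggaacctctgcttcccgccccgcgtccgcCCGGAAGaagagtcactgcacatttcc
Ndufb7: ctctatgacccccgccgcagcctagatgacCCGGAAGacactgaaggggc
Ndufb6: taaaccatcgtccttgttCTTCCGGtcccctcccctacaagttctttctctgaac
Thus the NRF-1 core was present in 2 of 32 members (6.25%) and in 1.64% of 27025 symbols with a window, the ETS motif in 3 of 32 (9.38%) and in 7.83%, and the oestrogen-related receptor motif in 0 of 32 and in 0.422%. A match is only a match of letters in this window.

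Comparisons between groups were made with limma on log2(FPKM + 0.5) in 1 fit of all 16 libraries, with Benjamini-Hochberg adjusted p-values over the 11256 genes tested, and a gene was called at an adjusted p under 0.05. The comparisons share libraries (CON-pre serves both the diet and the exercise comparison, for example), and they are therefore not independent. In whole muscle, fewer cells of a type and less RNA per cell cannot be told apart. Relative depth of the libraries, read from the steps between values of genes at or below 0.5 FPKM, ran from 0.706 to 1.12 of that of CON-pre 1. The 6 fibre markers (Acta1, Ckm, Mylpf, Tnnt3, Myh4 and Myh1), which define the tissue, summed to between 47896 and 69179 FPKM in a library, the 8 slow-fibre markers to between 192 and 760 FPKM, the 6 blood markers to between 259 and 903 FPKM, the 6 adipocyte markers to between 57.4 and 197.7 FPKM, the 5 macrophage markers to between 44.0 and 117.6 FPKM and the 4 endothelial markers to between 37.0 and 56.9 FPKM, with 0 markers at 0 in any library. With the diet at rest, the fibre sum was 62447 to 69179 FPKM in CON-pre and 54028 to 60195 FPKM in HFD-pre with 0 of 6 called, and the adipocyte sum 122.9 to 196.5 FPKM in CON-pre and 63.6 to 76.6 FPKM in HFD-pre with 2 of 6 called, Lep higher and Cfd lower, and 3 of 6 higher in all (median -0.013). The same 2 were called after exercise and with both states together, and 4 of the 6 fibre markers had an unadjusted p under 0.05 with both states together, at a median of -0.149. With exercise, 1 of 4 endothelial markers was called, Pecam1 (0.39 in the HFD mice and 0.36 with both diets together). The other 3 had lower means in the HFD mice (median of the 4 -0.069), while all 4 had higher means in the CON mice (median 0.104, 0 called). With the diet, 4 of 4 had higher means at rest (median 0.111) and 1 of 4 after exercise (median -0.036), with 0 called. All 6 adipocyte markers had higher means in HFD-post than in HFD-pre (median 0.476, 0 called). The fibre markers had lower means after exercise in 5 of 6 cases in the CON mice (median -0.140, 2 at an unadjusted p under 0.05) and in 6 of 6 in the HFD mice (median -0.068), with 0 called. The slow-fibre sum was 211.9 to 726.0 FPKM in CON-pre and 198.1 to 524.9 FPKM in HFD-pre, and 192.2 to 719.7 FPKM in CON-post and 193.7 to 760.1 FPKM in HFD-post, so that the groups overlapped. With 0 of 8 called by limma and 0 at an unadjusted p under 0.05, all 8 slow-fibre markers had lower means with the high-fat diet, by a median log2 fold change of -0.542 at rest, -0.325 after exercise and -0.438 with both states together. With exercise 5 of 8 had higher means in the CON mice (median 0.013) and 8 of 8 in the HFD mice (median 0.256), again with 0 called. Of the blood markers 0 of 6 were called, with medians for the diet of -0.475 at rest and 0.355 after exercise. For exercise their medians were -0.148 in the CON mice and 0.461 in the HFD mice. Of the 5 macrophage markers 0 were called. With the diet 5 had lower means at rest (median -0.192), 4 after exercise (median -0.215) and 5 with both states together (median -0.158). With exercise their medians were -0.046 in the CON mice and 0.014 in the HFD mice. The part of all these markers in the values below was not tested.

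The effect of the diet on resting muscle was read from HFD-pre against CON-pre. Not 1 of the 37 members was called by limma, against 0.346% of all genes tested, and the smallest Benjamini-Hochberg adjusted p of a member was 0.679. At an unadjusted p under 0.05 the count was also 0, against 8.25% of all genes, and in 0 members did the 4 HFD-pre mice lie wholly above or below the 4 CON-pre mice, against 5.62% of all genes. The median log2 fold change of the members was 0.02, against -0.03 for all genes, with 24 of 37 higher in HFD-pre. With 1 library left out the member median ran from -0.039 to 0.048. Of the core subunits 5 of 7 were higher (median 0.02), of the peripheral accessory subunits 4 of 9 (median -0.02), of the proximal membrane subunits, without Ndufs5, 5 of 8 (median 0.03) and of the distal membrane arm subunits 7 of 10 (median 0.04). The 95% intervals bound how large a change could have gone unseen: without Ndufs5, 36 of 36 lay within 1.5-fold in either direction and 15 within 1.2-fold.

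The largest differences at rest were in the membrane arm. Ndufc1, a small subunit of the proximal membrane arm, was at 111.0, 125.7, 148.4 and 111.0 FPKM in CON-pre and at 96.1, 108.0, 96.3 and 117.4 FPKM in HFD-pre. Its groups overlapped, with 1 CON-pre mouse above all the others, and its log2 fold change was -0.24 ± 0.13 (SE, limma adjusted p = 0.68). Ndufa3, a proximal subunit among the most abundant members, was at 415.6, 475.6, 439.9 and 300.1 FPKM in CON-pre and at 506.7, 528.5, 474.6 and 376.2 FPKM in HFD-pre. There too the groups overlapped, at a log2 fold change of 0.22 (95% interval -0.12 to 0.56), and in both diets the fourth mouse was the lowest. Ndufb3 of the distal arm gave 0.22, Ndufb5 of the same arm 0.14, Ndufb4 -0.12 and Ndufa2, a peripheral subunit with a thioredoxin-like fold, -0.17. The lowest p in this comparison belonged to Ndufb10, singled out after its values were seen, which was 9.62% higher in HFD-pre (95% interval -1.56 to 22.1%, limma adjusted p = 0.679).

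After exercise, the same dietary comparison (HFD-post against CON-post) gave 0 called members by limma, against 0.151% of all genes tested, with a smallest Benjamini-Hochberg adjusted p of 0.379. Unadjusted, 1 member had a p under 0.05, against 6.29% of all genes, and in 0 members were the groups apart, against 3.16% of all genes. The member median was 0.03 (all genes 0.00) and ran from -0.008 to 0.057 with 1 library left out. In HFD-post 24 of 37 members were higher, and 35 of 36 intervals lay within 1.5-fold. The exception was Ndufa4l2, the low-oxygen paralogue of Ndufa4. Ndufa4l2 was at 3.69, 3.27, 4.22 and 2.97 FPKM in CON-post and at 4.44, 4.07, 6.55 and 6.39 FPKM in HFD-post. Only HFD-post 2 fell below the highest CON-post mouse, CON-post 3. The difference was 0.52 ± 0.16 on the log2(FPKM + 0.5) scale (SE, 95% interval 0.18 to 0.86), or 43.5% higher in HFD-post with 0.5 added to each value. The means without it were 5.36 FPKM in HFD-post and 3.54 FPKM in CON-post. The limma p-value was 0.0052, and it became 0.379 after Benjamini-Hochberg adjustment (0.186 to 0.768 over 18 alternatives). In the resting mice Ndufa4l2 was at 4.67, 4.95, 3.78 and 5.47 FPKM in CON-pre and 4.19, 5.67, 4.15 and 5.92 FPKM in HFD-pre, which overlap throughout (log2 fold change 0.07). Ndufa4 itself differed by 0.02 after exercise and by 0.01 at rest. After Ndufa4l2 came Ndufa3 (0.14) and Ndufs6 (0.12, which turned direction without CON-post 1), and at the other end Ndufa2 (-0.10), Ndufs4 (-0.09) and Ndufb11 (-0.08).

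With both exercise states together, 0 members differed by diet in limma, against 0.959% of all genes tested. The smallest Benjamini-Hochberg adjusted p was 0.341, again for Ndufa4l2 (log2 fold change 0.29, 95% interval 0.05 to 0.53), and it was the 1 member with an unadjusted p under 0.05, against 10.4% of all genes. Ndufa3 (0.18) and Ndufb3 (0.15) followed, and Ndufa2 (-0.13), Ndufc1 (-0.10) and Ndufs4 (-0.09) were the lowest. The members' median was 0.03 against -0.02 for all genes, with 25 of 37 higher on the high-fat diet. With 1 library left out the members' median ran from -0.012 to 0.053. Of the intervals, 36 of 36 lay within 1.5-fold and 26 within 1.2-fold. A fit with the mouse numbers as a block within each exercise state was added after the data had been seen. In it limma again called 0 members, against 125 of the 11256 genes tested, and the smallest adjusted p was 0.104, for Ndufa3. The labels do not say that mice of the same number belong together.

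Exercise was examined within each diet. In CON-post against CON-pre, 0 members were called by limma, against 1.11% of all genes tested, and the smallest Benjamini-Hochberg adjusted p was 0.41. The unadjusted count was 1 (Ndufa4l2), against 11.1% of all genes, and in 0 members were the groups apart, against 5.82% of all genes. In HFD-post against HFD-pre, 0 members were called by limma, against 0.542% of all genes tested, with a smallest Benjamini-Hochberg adjusted p of 0.335. Here too the unadjusted count was 1 (Ndufa12), against 11.7% of all genes, and in 0 members were the groups apart, against 6.81% of all genes. The median log2 fold change of the members was 0.04 in the CON mice (all genes -0.01) and 0.05 in the HFD mice (all genes 0.04), with 21 and 25 of 37 higher after exercise, but after quantile normalization both medians were -0.01, with 15 and 16 of 37 higher. Of 36 intervals, 32 and 33 lay within 1.5-fold.

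**Figure D2:**
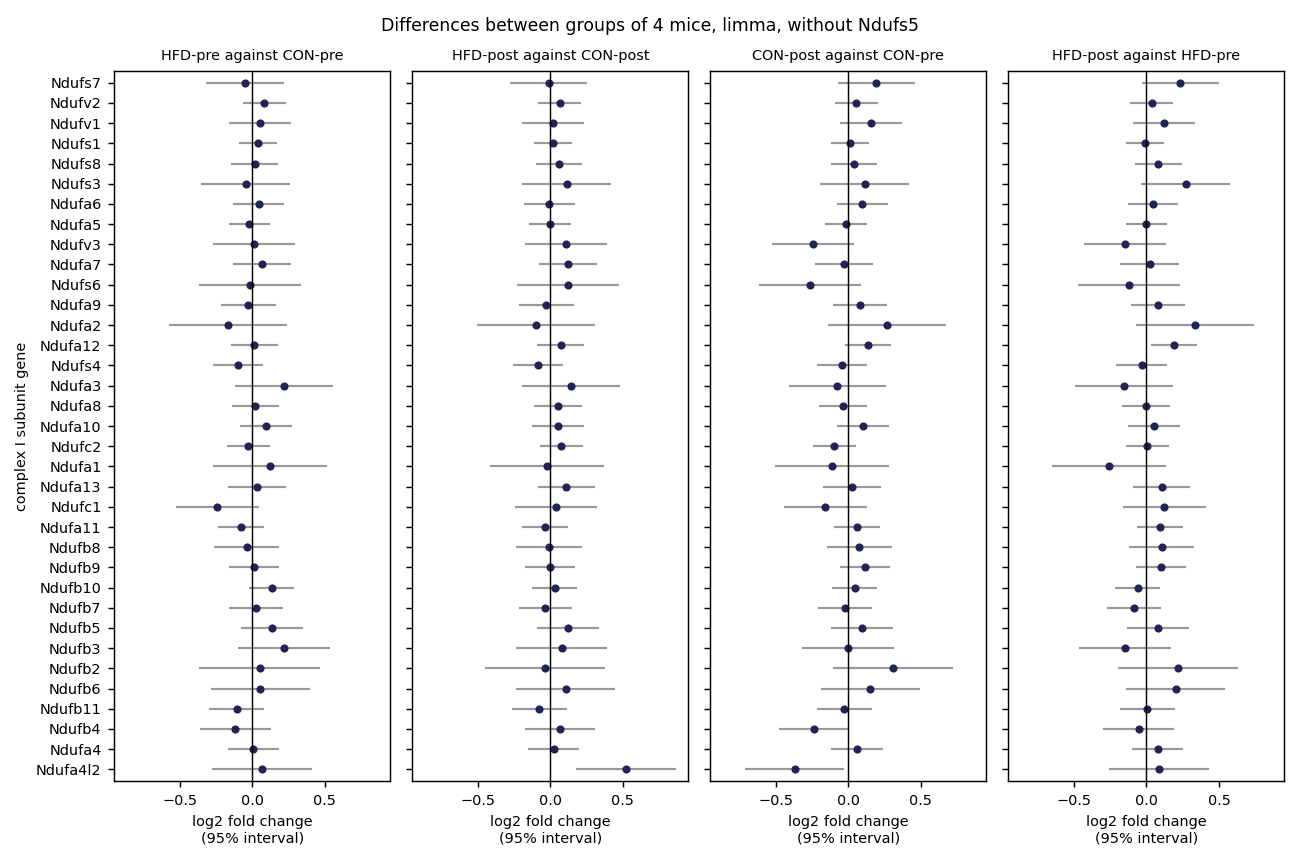
Log2 fold changes (points) and 95% intervals (lines) of 35 complex I genes, Ndufs5 left out, in the 4 comparisons of groups of 4 mice. Points cluster about the zero line in each panel, and the Ndufa4l2 interval in HFD-post against CON-post (0.18 to 0.86) is the one farthest from it.

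The core subunits, which form the path of the electrons, were higher after exercise in 7 of 7 cases in the CON mice (median log2 fold change 0.11) and in 6 of 7 in the HFD mice (median 0.08), with none called, and after quantile normalization in 4 of 7 and 5 of 7. Ndufs7, which carries the iron-sulfur cluster next to ubiquinone, was at 158.6, 130.4, 202.7 and 211.4 FPKM in CON-pre and 203.5, 217.1, 200.5 and 171.3 FPKM in CON-post. In the HFD mice it was at 163.5, 154.6, 157.7 and 192.5 FPKM before and 206.5, 197.5, 192.5 and 187.7 FPKM after. The pre mice reached down to 130.4 FPKM and the post mice only to 171.3 FPKM, but the ranges overlapped in both diets. Its differences were 0.19 in the CON mice and 0.23 ± 0.13 (SE) in the HFD mice, and with both diets together 0.21 ± 0.09 (SE, unadjusted p = 0.0284, limma adjusted p = 0.209). Ndufs3, the least abundant core subunit, gave 0.11 in the CON mice and 0.27 in the HFD mice. Ndufv1, which binds NADH and the flavin, gave 0.15 and 0.12. Ndufv2, Ndufs8 and Ndufs1 gave between -0.01 and 0.08 in both diets, and Ndufs1 was the core subunit that was lower in HFD-post, by -0.01.

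Among the accessory subunits the directions were divided. Of the peripheral arm 4 of 9 were higher in CON-post and 6 of 9 in HFD-post, of the proximal membrane arm, without Ndufs5, 3 of 8 and 5 of 8, and of the distal membrane arm 6 of 10 in each. The largest values in the CON mice were those of Ndufb2 (0.31) and Ndufa2 (0.27), and in the HFD mice those of Ndufa2 (0.33) and Ndufb2 (0.22). Ndufa2 was at 81.3, 63.6, 102.2 and 117.6 FPKM in CON-pre and 105.2, 130.2, 115.6 and 82.2 FPKM in CON-post. It was at 77.7, 60.6, 77.7 and 106.7 FPKM in HFD-pre and 107.4, 105.8, 105.2 and 82.6 FPKM in HFD-post, and the ranges overlapped in both diets. The smallest values, apart from Ndufs5, were those of Ndufs6 (-0.26) and Ndufv3 (-0.24) in the CON mice, and of Ndufa1 (-0.26) and Ndufa3 (-0.15) in the HFD mice. Ndufa1, a short single-span subunit needed for assembly, was at 125.5, 164.6, 141.2 and 114.2 FPKM in HFD-pre and 92.6, 114.1, 103.0 and 148.9 FPKM in HFD-post, with HFD-post 4 above 3 of the 4 resting mice. Outside the complex, Ndufa4l2 gave -0.37 in the CON mice (95% interval -0.71 to -0.03, unadjusted p = 0.0361, limma adjusted p = 0.41).

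Pooling both diets gave the exercise comparison its greatest precision. Of the 37 members 0 were called by limma, against 3.86% of all genes tested, and 3 had an unadjusted p under 0.05, against 18.5% of all genes. These were Ndufa12 (0.16), Ndufs7 (0.21) and Ndufa2 (0.30). Ndufa12, a peripheral subunit and paralogue of the assembly factor Ndufaf2, is singled out here after its values were seen. It was at 81.7, 70.0, 86.8 and 77.4 FPKM in CON-pre and 91.7, 93.5, 80.1 and 81.5 FPKM in CON-post. In the HFD mice it was at 81.8, 77.3, 78.2 and 80.9 FPKM before and at 94.3, 94.0, 94.0 and 81.5 FPKM after. In 5 of the 8 post mice it exceeded the highest pre mouse (86.8 FPKM), and the other 3 lay near 80.1 to 81.5 FPKM, within the pre range. The pooled difference was 11.9% (95% interval 3.46 to 21.1%), with a limma p-value of 0.0079 and, after Benjamini-Hochberg adjustment, 0.106, the smallest of any member. Over 24 alternatives its limma adjusted p ran from 0.0664, without HFD-post 4, in which Ndufa12 lay below the other mice of its group, to 0.414, and its log2 fold change from 0.08, after quantile normalization, to 0.19. Ndufb2 (0.26) was also among the highest, and Ndufv3 and Ndufs6 (-0.19 each) were the lowest after Ndufs5. The members' median was 0.05 against 0.01 for all genes, 19 of 37 were higher (15 of 37 after quantile normalization, with a median of -0.01), and of 36 intervals 35 lay within 1.5-fold and 22 within 1.2-fold.

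Whether the response to exercise differed with diet was tested by the interaction of diet and exercise. It was called in 0 members and in 0% of all genes tested by limma, with unadjusted counts of 0 members and 3.16% of all genes. The highest member was Ndufa4l2 (0.45, 95% interval -0.03 to 0.94, limma adjusted p = 0.9999), which was lower after exercise in the CON mice and 0.09 higher in the HFD mice. Ndufc1 (0.28) and Ndufb4 (0.18) followed, while Ndufa1 (-0.14, which turned direction without CON-pre 4), Ndufb3 (-0.14) and Ndufb10 (-0.10) were the lowest. The median was 0.02 (all genes 0.04) and ran from -0.036 to 0.066 with 1 library left out. The precision was least here, with 28 of 36 intervals within 1.5-fold and 6 within 1.2-fold.

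Other genes of the respiratory chain and of fat oxidation, taken from lists, are set beside these values. Of the 41 genes of complexes II to V, 0 were called by limma in any of the 7 comparisons, with 0 to 4 at an unadjusted p under 0.05. Their medians were 0.07 for exercise pooled over diets, with 35 of 41 higher, and 0.03 for diet pooled over exercise states, with 31 of 41 higher. Of 15 complex I assembly factors tested, 1 was called: Ndufaf1, which acts in the assembly of the membrane arm, was higher on the high-fat diet with both exercise states together (0.20 ± 0.04 SE, limma adjusted p = 0.0279). This call was lost in 14 of 25 alternatives, in which its limma adjusted p reached 0.166. For Ndufaf1 at rest and for Ndufaf2 with exercise over both diets, 1 alternative each added a call. Ndufab1, the mitochondrial acyl carrier protein that also sits in complex I but whose symbol the naming rule does not take, ranged from 6.72 to 30.4 FPKM and was 0.48 higher after exercise (95% interval -0.01 to 0.98, limma adjusted p = 0.281).

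Among 12 regulators of mitochondrial genes, Ppargc1a (PGC-1α, a coactivator of NRF-1, GABP and the oestrogen-related receptors) rose after exercise, by 1.98 ± 0.19 (SE) in the CON mice and by 2.10 ± 0.19 in the HFD mice, with limma adjusted p-values of 4.4e-05 and 2.9e-05. Nfe2l2, a regulator of antioxidant genes, rose by 0.31 with both diets together (limma adjusted p = 0.0206). That call was lost in 3 of 24 alternatives, which were upper-quartile scaling, quantile normalization and leaving out CON-pre 1. The other 10 regulators were not called in the main fit. Pprc1, a relative of PGC-1α, passed in 1 of 24 alternatives for exercise with both diets together (limma adjusted p = 0.0429 without HFD-pre 3). Of the 11 genes of fat oxidation, which feed electrons to the chain, 6 rose in HFD-pre against CON-pre, 4 in HFD-post against CON-post and 9 with both exercise states together. The largest differences were those of Ech1 (0.87 in HFD-pre) and Acadl (0.77 in HFD-pre), and 1 of the 11, Acadl, rose after exercise in the CON mice (0.38) and none in the HFD mice by limma (4 at an unadjusted p under 0.05). With both diets together all 11 were higher after exercise, 8 of them at an unadjusted p under 0.05, and Acadl rose (0.29, limma adjusted p = 0.0126), a call that stayed in all 24 alternatives, while the interaction called 0 of 11. Across 18 alternatives Acadl, Ech1 and Hadha stayed called in HFD-pre against CON-pre, while Acadm, Acadvl and Cpt2 were lost in 4, 9 and 11 of them. In HFD-post against CON-post, Acadm was lost in 15 of 18 and Cpt2 in 3, and all 4 calls (Acadl, Acadm, Cpt2 and Ech1) were lost when only these groups were fitted. Acadl after exercise in the CON mice was lost in 11 of 17. With both exercise states together 8 of the 9 calls stayed in all 25 alternatives, and Etfb was lost in 3. Both Ppargc1a calls stayed in all 17. Some alternatives added calls, for exercise with both diets together Etfa, Etfdh and Hadhb in 2 of 24 each, and for the diet Etfdh at rest, Hadha after exercise and Hadhb with both states together in 1 each. The difference between these lists and complex I was not tested.

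**Figure D3:**
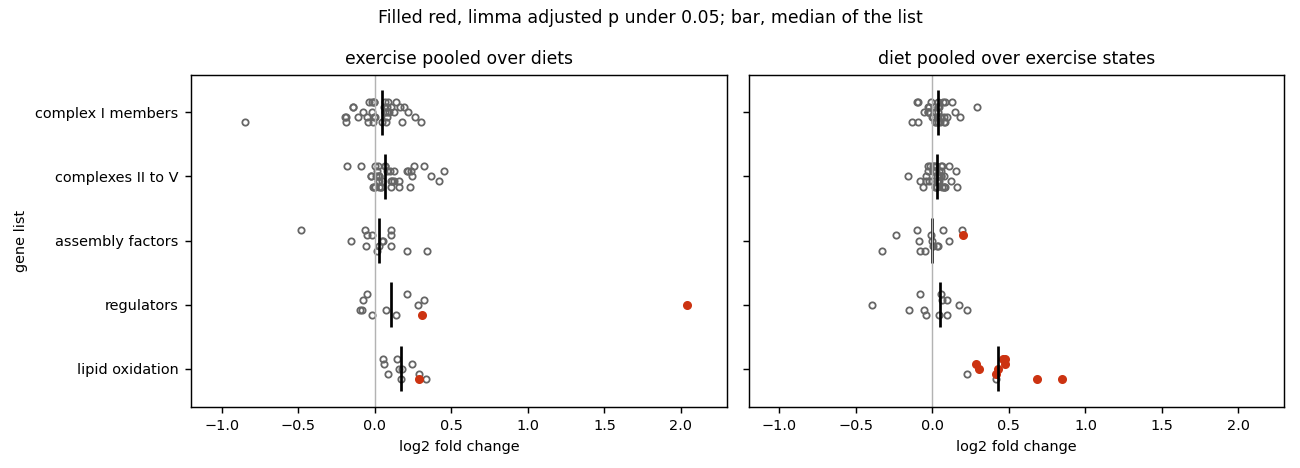
Log2 fold changes of the genes tested in 5 lists, for exercise pooled over diets (left) and diet pooled over exercise states (right). Filled red points have a limma adjusted p under 0.05, and black bars are list medians, which are 0.05 and 0.03 for complex I and 0.17 and 0.43 for lipid oxidation.

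The members did not vary as a block between mice of the same group. Within groups, the first component of the deviations of 36 members took 53.2% of their variance and the second 22.9%, and the first set 5 members against 5 others. Both sets were chosen from these values and are given as a description. The first set held Ndufb2, Ndufa2, Ndufb6, Ndufs3 and Ndufs7, and the second Ndufa1, Ndufa3, Ndufs6, Ndufv3 and Ndufb3, so each mixed subunits of both arms. In CON-pre the ratio of their summed FPKM was 0.449, 0.368, 0.611 and 0.902, and in HFD-pre 0.442, 0.379, 0.468 and 0.744. The corresponding ratios were 0.876, 0.840, 0.668 and 0.480 in CON-post and 0.817, 0.691, 0.643 and 0.490 in HFD-post. All 4 groups overlapped, and in each exercise state the 4 mice of one diet stood in the same order by number as those of the other. Mice of the same group differed by up to 2.45-fold. The mean ratio was 0.583 ± 0.236 and 0.508 ± 0.162 at rest and 0.716 ± 0.182 and 0.660 ± 0.135 after exercise, each time the control diet first (SD, n = 4 each). None of the 10 members was called in any comparison. Of the exercise differences named above, those of Ndufs7, Ndufs3, Ndufa2 and Ndufb2 belong to the first set and those of Ndufs6, Ndufv3, Ndufa1 and Ndufa3 to the second, so they are not separate observations. Other genes varied with the sets as well. Over the 16 libraries, the correlation of a gene's deviations from its group mean with the difference of the sets had a median of 0.65 in 15 genes of complex V, 0.52 in the 41 genes of complexes II to V and 0.45 in 15 assembly factors. It was 0.40 in the 8 slow-fibre markers, 0.39 in the 11 genes of fat oxidation and -0.27 in the 6 fibre markers, against 0.74 in the 7 core subunits, 0.25 in 36 members and 0.03 in all genes tested. These genes share the libraries and their depth, and the sets are themselves members.

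**Figure D4:**
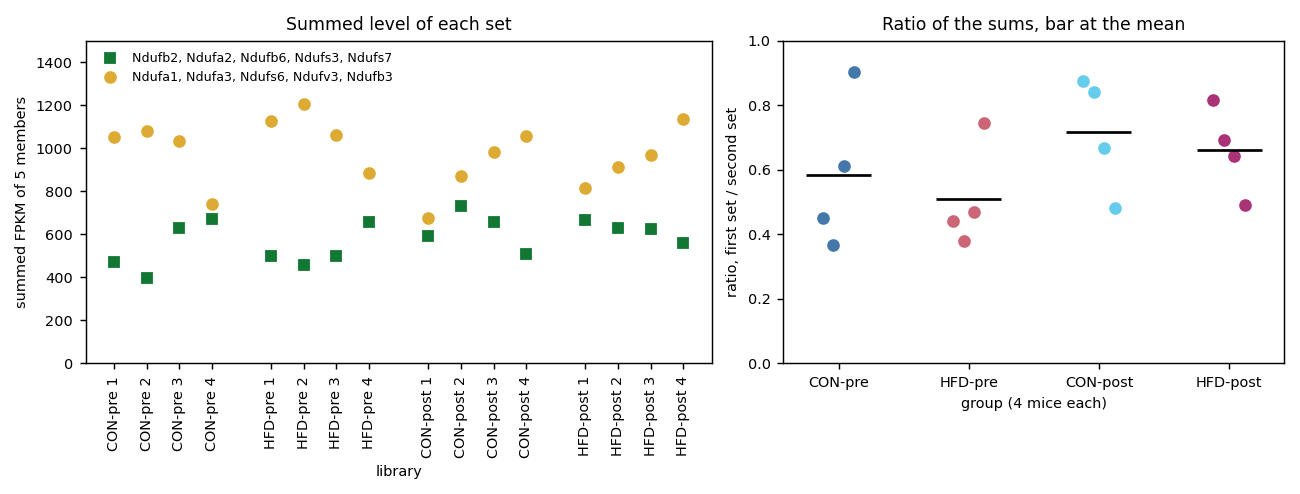
Left, summed FPKM of 5 members (green squares, Ndufb2, Ndufa2, Ndufb6, Ndufs3 and Ndufs7) and of 5 others (yellow circles, Ndufa1, Ndufa3, Ndufs6, Ndufv3 and Ndufb3) in each of the 16 libraries. Right, the ratio of the sums in each mouse with a bar at the group mean, which runs from 0.368 to 0.902 and overlaps between all 4 groups.

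A property of the libraries moved with this ratio. Of the genes at or below 0.5 FPKM, the share whose value stood at the commonest ratio to CON-pre 1, the ratio taken as the relative depth, was 3.47 to 7.58% in HFD-post 1, CON-post 1, HFD-pre 4 and CON-pre 4, and 9.27 to 17.2% in 11 others. These 4 libraries, 1 in each group, had ratios of the sets between 0.744 and 0.902, and the other 12 between 0.368 and 0.840. Without the 4 libraries the ratio ran from 0.368 to 0.611 in 6 pre mice and from 0.480 to 0.840 in 6 post mice. Its part in the ratio, and in the exercise differences of the members of the sets, was not tested. Median transcript length was 983 bases in the first set and 757 bases in the second, and median GC content 53.3% and 49.1% (GENCODE M1). In a fit without the 4 libraries, limma again called 0 members in each of the 7 comparisons.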

How the data were processed

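The authors prepared stranded mRNA libraries, mapped the reads by TopHat and quantified transcripts by Cufflinks, as given in the Methods and the submitters' processing notes. The deposited values are FPKM, scaled by the authors for transcript length and library size, so no count model was used. They keep no read depth, and relative depth was read from genes at or below 0.5 FPKM. Of 24487 entries, 27 with names turned into dates (0.0771% of all FPKM) were left out and 260 symbols found in several entries were summed, leaving 23970. No member was among the latter. Every column was used. The loci printed in the study's supplement overlapped GRCm38 genes for 692 of 692 symbols and mm9 genes for 114, while mm9 is the build named, so GRCm38.p6 positions and sequences from RefSeq were used.

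Genes whose mean reached 0.5 FPKM were tested with limma 3.58.1 (R 4.3.3, mean-variance trend) on log2(FPKM + 0.5), in 1 fit of 4 groups without covariates, with 95% intervals. Fold changes on this scale understate those of low genes. The members, lists and tests were chosen with earlier results of these data known. Genes named are called members, the 3 highest and 3 lowest fold changes of each comparison, the 5 highest and 5 lowest levels, the core subunits, Ndufa4, Ndufa4l2 and Ndufab1, and genes of other lists where called. Alternatives were pseudocounts of 0.1 and 1, no filter, upper-quartile and quantile scaling, only the groups compared, a replicate block (and, added later, 1 within each exercise state), symbols in several entries left out, unadjusted p, and each library left out. The code was tested on simulated data. Python 3.11.15, numpy 2.4.6, pandas 2.3.3 and matplotlib 3.10.9 were used. The values of 1 member are not reported here on their own, though it is part of the counts and medians.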

Additional observations from a re-analysis of the deposited data

Results flagged for a closer look

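In each group of 4 mice the lowest or highest value was compared with the rest by the gap to its neighbour over the whole range, for 36 members and for the sum of all members, 148 groups of values in all. The gap passed Dixon's critical ratio at the 95% level in 3 of them, where chance gives about 5% of groups. Ndufa12 was at 81.5 FPKM in HFD-post 4, with the other 3 mice between 94.0 and 94.3 FPKM. Ndufa2 was at 82.6 FPKM in the same library, with the others between 105 and 107 FPKM. Ndufb4 was at 41.6 FPKM in CON-post 2, with the others between 51.5 and 52.2 FPKM.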

How the results depend on the processing

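Fits of only the groups compared, or with 1 library left out, did not cover all 7 comparisons. In limma, the count of called members stayed at 0 in each comparison fitted, under every other pseudocount, filter, scaling and choice of libraries. It differed only with the threshold: an unadjusted p under 0.05 gave 1 in CON-post against CON-pre, 1 in HFD-post against HFD-pre, 1 in HFD-post against CON-post, 3 for exercise and 1 for diet. Under the replicate block the count was 0 in each comparison. With 1 library per number in each group, this block cannot change a fold change. The medians were therefore again 0.02 for HFD-pre against CON-pre, 0.04 for CON-post against CON-pre and 0.05 for HFD-post against HFD-pre. Same-numbered mice of different groups correlated between -0.22 and 0.213, which is short of the criterion for pairing (every correlation over 0.1), although 3 of 4 CON-post mice correlated best with their own number in HFD-post and 2 of 4 CON-pre mice with theirs in HFD-pre. A block of the numbers within each exercise state, which bears only on the diets, also gave 0 called members. At an unadjusted p under 0.05 it gave 3, 2, 1 and 4 members at rest, after exercise, in the interaction and with both states together. Without the block the counts were 0, 1, 0 and 1, and the shares of all genes 8.25%, 6.29%, 3.16% and 10.4%. The shares of all genes under the block were not computed, so nothing about the members is read from its counts. Medians of the members moved by less than 0.08, the spread between single replicates, in each alternative. The medians are themselves smaller than this spread, so the limit could hardly be passed. They lie near 0 and their sign is not settled. Under quantile normalization the 3 exercise medians turned to between -0.014 and -0.008, under upper-quartile scaling the interaction median was -0.020, and with 1 library left out the medians ran from -0.039 to 0.048 for diet at rest, from -0.008 to 0.057 for diet after exercise, from -0.012 to 0.053 for diet with both states together and from -0.036 to 0.066 for the interaction. Of 864 values of named members, 2 turned direction: Ndufs6 in HFD-post against CON-post (0.12 in the report, -0.014 without CON-post replicate 1, at most 0.228 when another library was left out) and Ndufa1 in the interaction (-0.14 in the report, 0.002 without CON-pre replicate 4, at least -0.298 otherwise). The cause was not tested. Leaving out Ndufs5, or the 4 libraries, and the block within exercise states were chosen once the data had been seen. The depth of each single library is not known in reads, since the paper gives only an approximate number of reads per sample. With 4 mice in a group a change within 1.2-fold could go unseen in most members in 4 of the 7 comparisons.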
